A study of Mus musculus with 21 samples.

Results

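Translation initiation factors are the proteins that bring the ribosome, the messenger RNA and the initiator tRNA together at a start codon. Their genes were followed here in blood stem cells of the mouse that lack retinoid X receptors (RXR), nuclear receptors that act as the common partner of other ligand-bound receptors, such as those for retinoic acid. Members were all genes whose symbol starts with Eif1 to Eif6, without the Eif2ak kinases, the Y-linked Eif2s3y and the processed copies marked -ps, which left 49 of 28987 gene identifiers. By role they were 14 subunits of eIF3, 5 genes named after the start codon scanning factors eIF1 and eIF1A, 3 subunits of eIF2 and 5 of its exchange factor eIF2B, the alternative initiator tRNA carriers Eif2a and Eif2d, 3 eIF4A helicases with 2 helicase cofactors, 3 cap-binding eIF4E proteins, 3 eIF4G scaffolds, 4 proteins that bind eIF4E, 4 genes of the eIF5 family, and Eif6. Roles were assigned by symbol, so Eif1ad is counted with eIF1A and Eif4a3 with the eIF4A helicases by name alone.

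RNA was measured in 21 libraries, 3 in each of 7 groups, from lineage-depleted, sorted cells of pooled animals. Batch 1 held multipotent progenitors (MPP, sorted as MPP3 and MPP4) and long-term haematopoietic stem cells (LT-HSC), each from knockouts labelled VaviCre+Rxrabfl/fl and from floxed controls labelled Rxrabfl/fl without Cre. Batch 2 held LT-HSC from animals labelled Vav1Cre+Rxrabfl/fl with 1 floxed allele of a Myc-family gene in addition (Myclfl/+ in the titles, Myc in the descriptions), from animals labelled Vav1Cre+Rxrabfl/fl alone, and from Vav1Cre+WT controls. The Vav1 promoter drives Cre in blood cells, so the knockouts delete floxed Rxra and Rxrb there, and no group of batch 1 controls carries Cre. Values are the deposited TPM, the abundance of transcripts as a share of the library, which are scaled by transcript length and by the total of each library. The deposited values do not add up to a common total. Their sums ran from 691094 in Myc allele library 3 to 918942 in Myc allele library 1. Each comparison was repeated on rescaled values, in which median-of-ratios size factors set the libraries to a common scale. The words rose and fell are kept for genes with an adjusted p under 0.05 over all genes tested, by limma on log2(TPM + 1). Libraries are numbered from 4 to 6 in labelled knockouts and Cre controls of batch 2 and from 1 to 3 elsewhere.

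Initiation starts when eIF2, bound to GTP, carries the initiator tRNA to the small ribosomal subunit, where eIF1, eIF1A, eIF3 and eIF5 assemble with it. The cap-binding complex eIF4F, made of eIF4E, the scaffold eIF4G and the helicase eIF4A, loads this assembly onto the messenger, and eIF4E-binding proteins block eIF4E until the kinase mTOR phosphorylates them. eIF2B recharges eIF2 and is inhibited when stress kinases phosphorylate eIF2, which lowers general translation and raises translation of Atf4. Haematopoietic stem cells are known for a low rate of protein synthesis that depends in part on the eIF4E-binding proteins, and Myc is known to raise transcription of many initiation factor genes.

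The promoters shown are those of Eif4e, Eif4a1 and Eif4g1, 1 gene for each subunit of eIF4F. They were picked because each holds the E-box CACGTG, the palindrome that Myc with Max binds, and because batch 2 includes a Myc-family allele. They are RefSeq sequences on GRCm38.p6, from 250 bases before to 50 bases after the start, written 5′ to 3′ on the gene's strand with CACGTG in capitals. Eif4e lies on the plus strand (chr3:138527018-138527317), Eif4a1 on the minus strand (chr11:69672374-69672673) and Eif4g1 on the plus strand (chr16:20672477-20672776).
Eif4e: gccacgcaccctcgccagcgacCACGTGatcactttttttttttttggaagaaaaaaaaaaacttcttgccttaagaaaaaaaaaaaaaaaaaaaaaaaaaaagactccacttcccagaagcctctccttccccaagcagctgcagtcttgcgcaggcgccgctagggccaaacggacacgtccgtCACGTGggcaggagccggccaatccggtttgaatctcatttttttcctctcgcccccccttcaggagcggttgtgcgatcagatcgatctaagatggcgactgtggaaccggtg
Eif4a1: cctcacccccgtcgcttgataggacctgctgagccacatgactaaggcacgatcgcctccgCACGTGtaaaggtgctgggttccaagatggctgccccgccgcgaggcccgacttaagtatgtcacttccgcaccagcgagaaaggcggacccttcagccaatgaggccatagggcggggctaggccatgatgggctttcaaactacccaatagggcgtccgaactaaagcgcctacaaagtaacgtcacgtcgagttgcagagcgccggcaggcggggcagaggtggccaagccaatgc
Eif4g1: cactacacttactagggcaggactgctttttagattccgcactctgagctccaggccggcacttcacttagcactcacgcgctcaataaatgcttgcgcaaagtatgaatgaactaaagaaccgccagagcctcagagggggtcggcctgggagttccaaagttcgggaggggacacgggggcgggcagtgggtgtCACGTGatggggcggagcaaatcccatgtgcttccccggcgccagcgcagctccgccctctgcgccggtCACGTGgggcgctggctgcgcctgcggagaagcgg
The cap-binding subunit Eif4e and the scaffold Eif4g1 hold the E-box 2 times each in this window, and the helicase Eif4a1 holds it 1 time. Among the members, 38 had 50 promoters in the RefSeq table, and 10 of these genes (26.3%) held CACGTG in at least 1 promoter, against 2187 of 27025 genes in the whole table (8.09%). The other 7 were Eif5a2, Eif4h, Eif3k, Eif3f, Eif1b, Eif5a and Eif3a. Eif4a2 and Eif4g3, paralogues of Eif4a1 and Eif4g1, were not among the 10, and members without a promoter in that table were not searched. CACGTG reads the same on both strands, so 1 search covered them. These matches describe letters in the sequence, and binding was not measured.

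All members were expressed. Their mean TPM over the 21 libraries ran from 1.23 for Eif5a2 to 515 for Eif1, with a median of 53.4, and 48 of 49 were above 0 in every library. Eif1, which holds the scanning ribosome open until a start codon is found, came first, followed by the helicase Eif4a2 (447 TPM), the scaffold Eif4g2 (409 TPM), the helicase Eif4a1 (333 TPM) and the eIF3 subunit Eif3k (269 TPM). Only 4 members averaged below 10 TPM, namely Eif4e1b (9.13 TPM), Eif2b4 (7.18 TPM), Eif4ebp3 (1.90 TPM) and Eif5a2. The sum over all 49 members ran from 2807 TPM in LT-HSC floxed control 2 to 6125 TPM in Cre control 4.

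The standard deviation of log2(rescaled TPM + 1) over all 21 libraries was lowest for Eif4g3 (0.167), Eif4enif1 (0.182) and Eif3e (0.192). It was highest for the eIF4E-binding protein Eif4ebp3 (0.842), the eIF4E paralogue Eif4e1b (0.836), Eif1b (0.610) and Eif1 (0.564). Eif4ebp3 was low and uneven, with 0 TPM in 2 libraries of batch 2 labelled knockout and in 1 with the Myc allele, and it was not tested in batch 2.

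**Figure D1:**
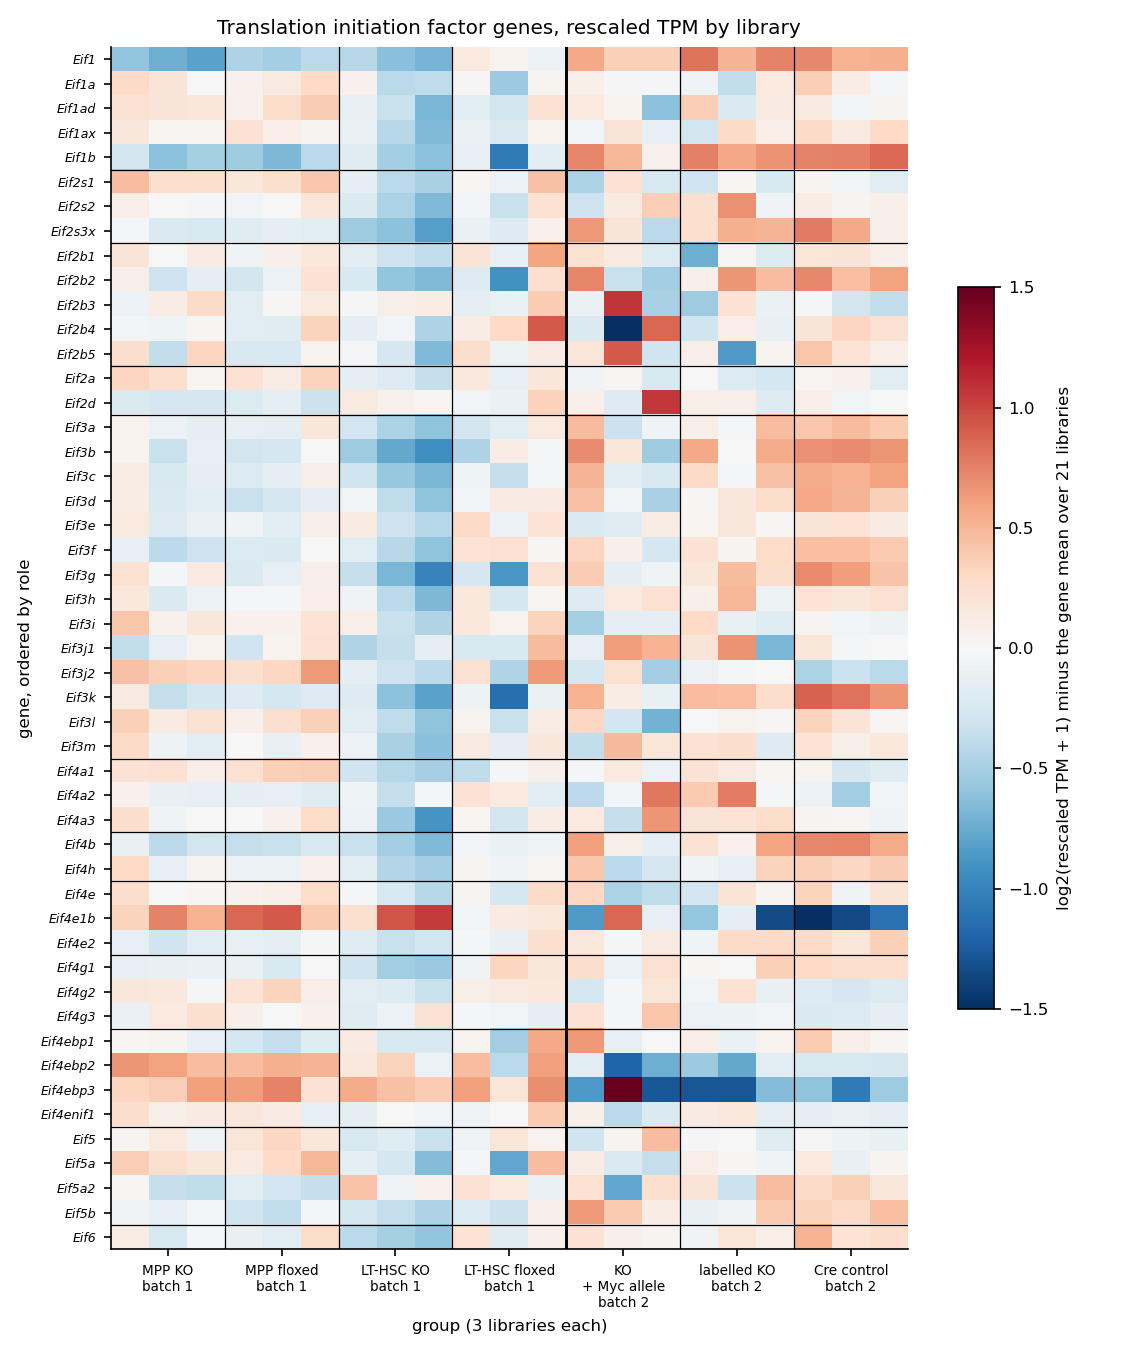
Each row is 1 of the 49 genes, ordered by role, and each column is 1 of 21 libraries, with knockouts left of their controls and MPP left of LT-HSC. Colour is log2(rescaled TPM + 1) minus the gene's mean over all libraries, clipped at 1.5 in both directions. LT-HSC knockout libraries of batch 1 lie below the gene mean (blue) in most rows, and all 3 lie above it (red) for Eif4e1b.

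Before the comparisons, 4 features of the libraries bear on every value. The identifier ENSMUSG00000089855, which has no symbol in the tables used, was the most abundant in every library and took 51.84% of the TPM scale in LT-HSC floxed control 2, against 10.55 to 30.53% in the others. That library had the lowest size factor, 0.646, where the highest was 1.424 in LT-HSC knockout 2. It was the lowest of its group for 48 of 49 members on deposited TPM and for 32 on rescaled TPM. A junction that skips 1 exon of Rxra took a share of 0.938 of junction reads in LT-HSC knockout 1 of batch 1 and of 1 and 0.5 in MPP knockouts 1 and 3, the other knockout libraries of batch 1 having no value, against 0 to 0.1 in floxed controls. In batch 2 that share was 0.647, 0 and 1 with the Myc allele, 0, 0.0127 and 0 in the libraries labelled knockout, and 0 in the 3 Cre controls, so that the second of these groups is called labelled knockout below. Summed markers of neutrophils were 119 to 1270 TPM in LT-HSC knockouts of batch 1, against 33.0 to 56.1 TPM in floxed LT-HSC, and those of B cells were 365 to 891 TPM against 9.83 to 216 TPM. Of the 7 B cell markers, 3 stayed below 1 TPM in every LT-HSC knockout library and 4 in every floxed one. Between the same groups, summed LT-HSC markers were 560 to 708 against 260 to 460 TPM. MPP markers were 68.6 to 136 against 35.2 to 66.8 TPM. Markers of mast cells, basophils and eosinophils were 15.7 to 43.8 against 3.03 to 6.76 TPM. Erythroid markers overlapped, at 217 to 343 against 239 to 664 TPM. The part of all these markers in the results was not tested. Summed MPP markers were 1100 to 1970 TPM over the 6 MPP libraries and 30.9 to 136 TPM over the 15 LT-HSC libraries, and summed LT-HSC markers were 99.8 to 144 TPM over the MPP and 245 to 708 TPM over the LT-HSC libraries. The MPP libraries also held 709 to 11700 TPM of summed B cell markers. In bulk libraries such as these, fewer cells of a type and less RNA per cell cannot be told apart.

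In LT-HSC of batch 1, knockout against floxed, most initiation factor genes were higher on deposited TPM, but by less than the median gene, and lower on rescaled TPM. Of 49 members, 3 rose and 0 fell, while 44.6% of all 14839 genes tested rose and 0.58% fell. The members' median log2 change was 0.27, against 0.52 for all genes. On rescaled TPM, where the median of all genes was -0.03, the members' median was -0.35, 46 of 49 members had a value below 0, and 3 fell and 0 rose, while 2.47% of all genes fell and 2.2% rose. Values above 0 were held by 94% of all genes on deposited and by 46.67% on rescaled TPM. Of all genes 2.74% passed on both scales, and 0 members did. All 14 eIF3 subunits, all 3 eIF2 subunits, all 5 eIF2B subunits and all 3 eIF4A helicases had rescaled log2 changes below 0, with medians of -0.40, -0.50, -0.44 and -0.33. Of these 25 genes only Eif2s3x passed the test.

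Eif4e1b had the largest deposited change of the family here. It encodes a relative of the cap-binding protein eIF4E that is best known from oocytes (ENSMUSG00000074895, chr13:54783994-54788459). It had 10, 21.8 and 22.1 TPM in LT-HSC knockouts, against 6.95, 5.31 and 7.73 TPM in floxed LT-HSC. All 3 knockout libraries lay above all 3 floxed ones, and the first knockout library lay well below the other two. The means were 17.9 ± 6.88 and 6.66 ± 1.23 TPM (SD, n = 3 each), a log2 change of 1.24 (SE 0.27, adjusted p = 0.0066). On rescaled TPM the change was 0.64 (adjusted p = 0.074), with 8.97, 15.3 and 16.5 against 7.19, 8.23 and 8.42, so the direction held and the call did not. The deposited call held without any 1 library of these 2 groups, with adjusted p from 0.0012 to 0.040.

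The other members that rose on deposited TPM were Eif4g3, a paralogue of the scaffold eIF4G1, and Eif2d, which can deliver initiator tRNA outside the eIF2 route. Eif4g3 had 38.6, 52.4 and 62.0 TPM in LT-HSC knockouts, against 37.4, 24.6 and 32.6 TPM in floxed LT-HSC (log2 change 0.67, SE 0.22, adjusted p = 0.025). Its rescaled change was 0.03 (adjusted p = 0.90). Eif2d had 22.0, 26.7 and 24.6 TPM in knockouts, against 16.8, 10.8 and 21.3 TPM in floxed cells (0.60, SE 0.21, adjusted p = 0.031), with a rescaled change of -0.02 (adjusted p = 0.93). Eif2d overlaps Rassf5 in the annotation, and reads of the pair may not be separable. Without floxed control 2, without knockout 2 or without knockout 3 the deposited count was 1 member, without floxed control 1 it was 7, and without floxed control 3 it was 8. The share of all genes that passed was not counted in fits without 1 library or with a block, here and below.

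Relative to the other genes, 3 factors of the core machinery fell in LT-HSC knockouts. Eif2s3x, the X-linked gene of the GTP-binding eIF2 gamma subunit, had 35.1, 32.9 and 28.5 rescaled TPM in knockouts, against 47.5, 44.6 and 53.5 in floxed LT-HSC (log2 change -0.60, SE 0.13, adjusted p = 0.028). Eif4g1, the main eIF4F scaffold, had 53.7, 45.8 and 44.8, against 63.8, 83.0 and 74.4 (-0.63, SE 0.14, adjusted p = 0.029). Eif1 had 362, 314 and 297, against 538, 503 and 454 (-0.64, SE 0.14, adjusted p = 0.030). In none of the 3 genes did the groups overlap on the rescaled scale. On deposited TPM the same genes had changes of 0.04, 0.02 and 0.01 (adjusted p = 0.88, 0.93 and 0.96). The rescaled count rested on single libraries, being 16 members (1 higher, 15 lower) without knockout 1, and 0 without knockout 2 or without knockout 3. Knockout 1 was the highest of its group for 40 of 49 members after rescaling, and knockout 3 the lowest for 40.

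Counting only members whose groups did not overlap in this comparison gave 6 higher and 0 lower on deposited TPM, where 48.2% and 0.559% of all genes were so placed, and 1 higher and 15 lower on rescaled TPM, against 12.4% and 13.6% of all genes.

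**Figure D2:**
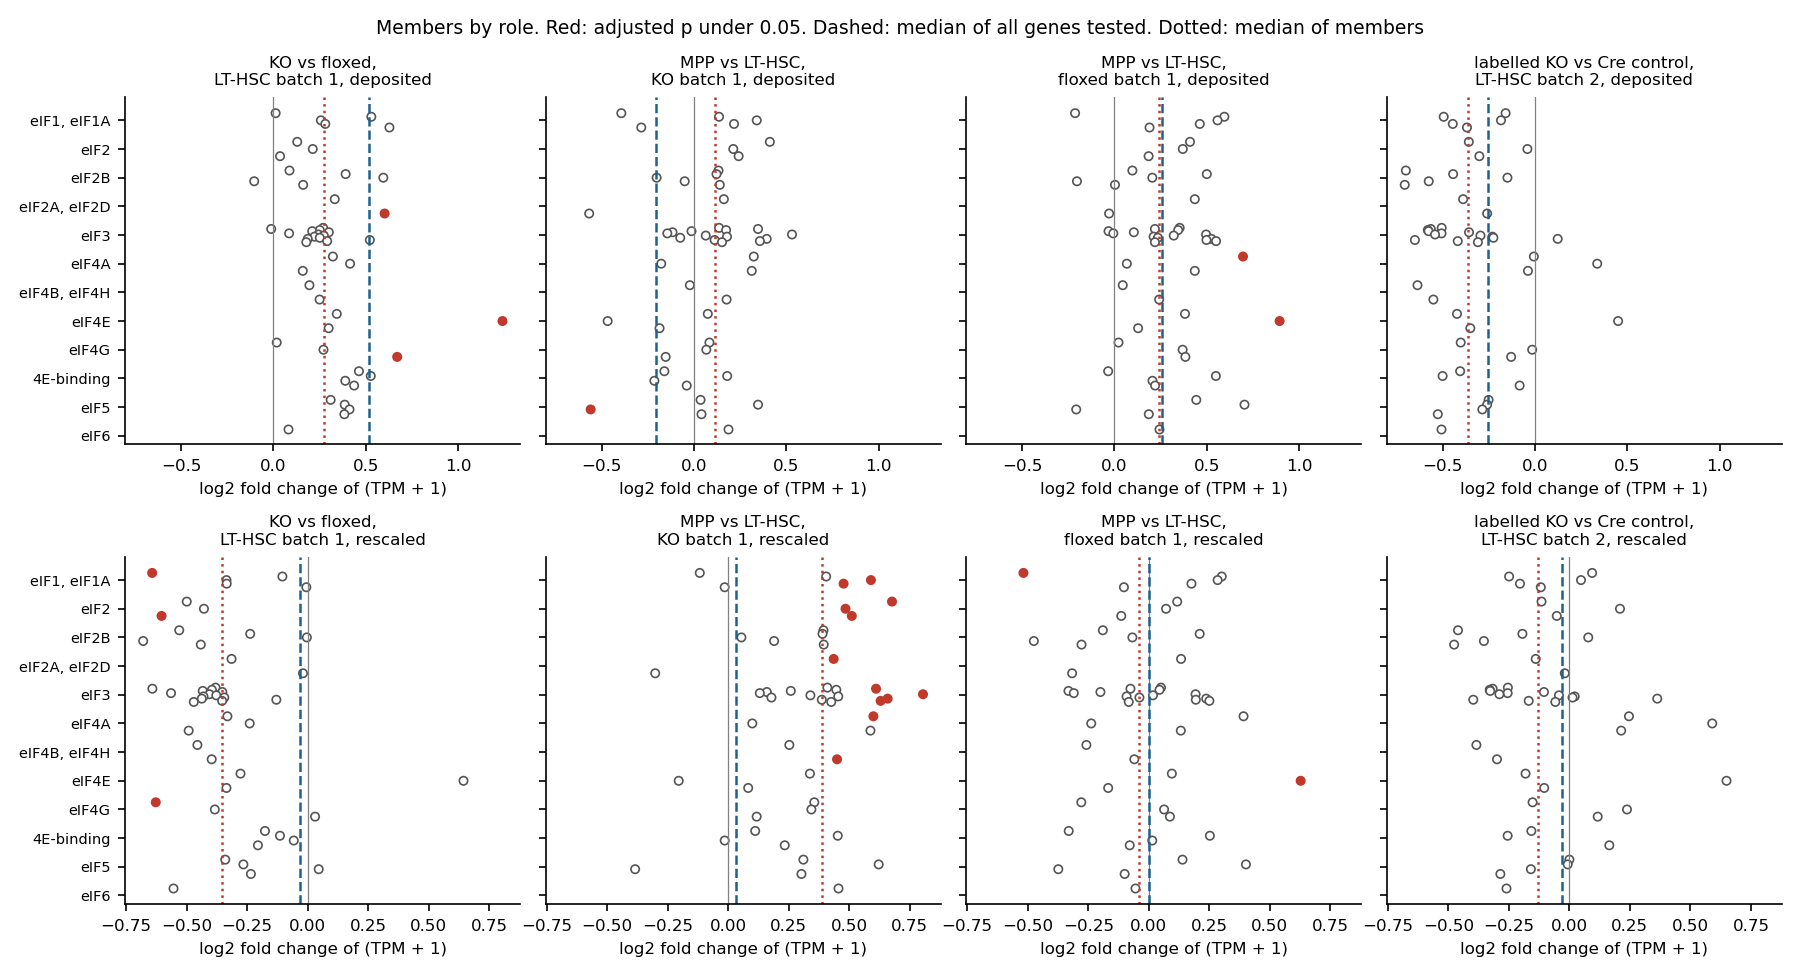
Each point is 1 initiation factor gene, placed by its log2 fold change of (TPM + 1) on the horizontal axis and by role on the vertical axis, for 4 comparisons on deposited TPM (upper row) and rescaled TPM (lower row). Red points passed an adjusted p of 0.05, the dashed line is the median of all genes tested and the dotted line that of the members. In LT-HSC knockouts of batch 1 the dotted line lies left of the dashed one on both scales (0.27 and 0.52, -0.35 and -0.03).

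Knockout MPP of batch 1 were compared with floxed MPP in the same fit. By limma 0 of 49 members passed on either scale, where 0.323% of all genes passed on deposited TPM and 0.526% on rescaled TPM. At an unadjusted p under 0.05 there were also 0 members, against 6.35% and 9.49% of all genes. Summed neutrophil markers were 69.3 to 557 TPM in knockout MPP, against 12.5 to 36.5 TPM in floxed MPP. Summed B cell markers were 709 to 6020 TPM (median 1660) in knockout MPP, against 2160 to 11700 TPM (median 11100) in floxed MPP. The part of these markers in the members' values was not tested. The median log2 change of the members was 0.07 on deposited TPM (all genes 0.08) and 0.01 on rescaled TPM (all genes 0.01). Deposited changes of single members ran from -0.17 (Eif1) to 0.34. Eif1 had 312, 322 and 315 TPM in knockout MPP, against 361, 331 and 377 TPM in floxed MPP, which did not overlap (adjusted p = 1). Eif4e1b had 9.39, 14.5 and 12.6 TPM in knockout MPP, against 14.8, 14.6 and 10.4 TPM in floxed MPP, which did overlap (log2 change -0.12, adjusted p = 1).

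Whether the knockout effect differed between the cell types was tested as an interaction. For 0 of 49 members did it pass on either scale (0.0809% of all genes on deposited TPM and 0.027% on rescaled TPM). At an unadjusted p under 0.05 there was 1 member on deposited TPM, against 26.2% of all genes, and 13 on rescaled TPM (26.5%), against 13.1% of all genes. The largest difference was that of Eif4e1b, whose knockout effect in MPP minus that in LT-HSC was -1.36 (SE 0.38, adjusted p = 0.10) on deposited and -0.83 (adjusted p = 0.30) on rescaled TPM. Without LT-HSC knockout 1 the deposited difference passed (adjusted p = 0.021), and over the libraries left out it ran up to 0.26.

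**Figure D3:**
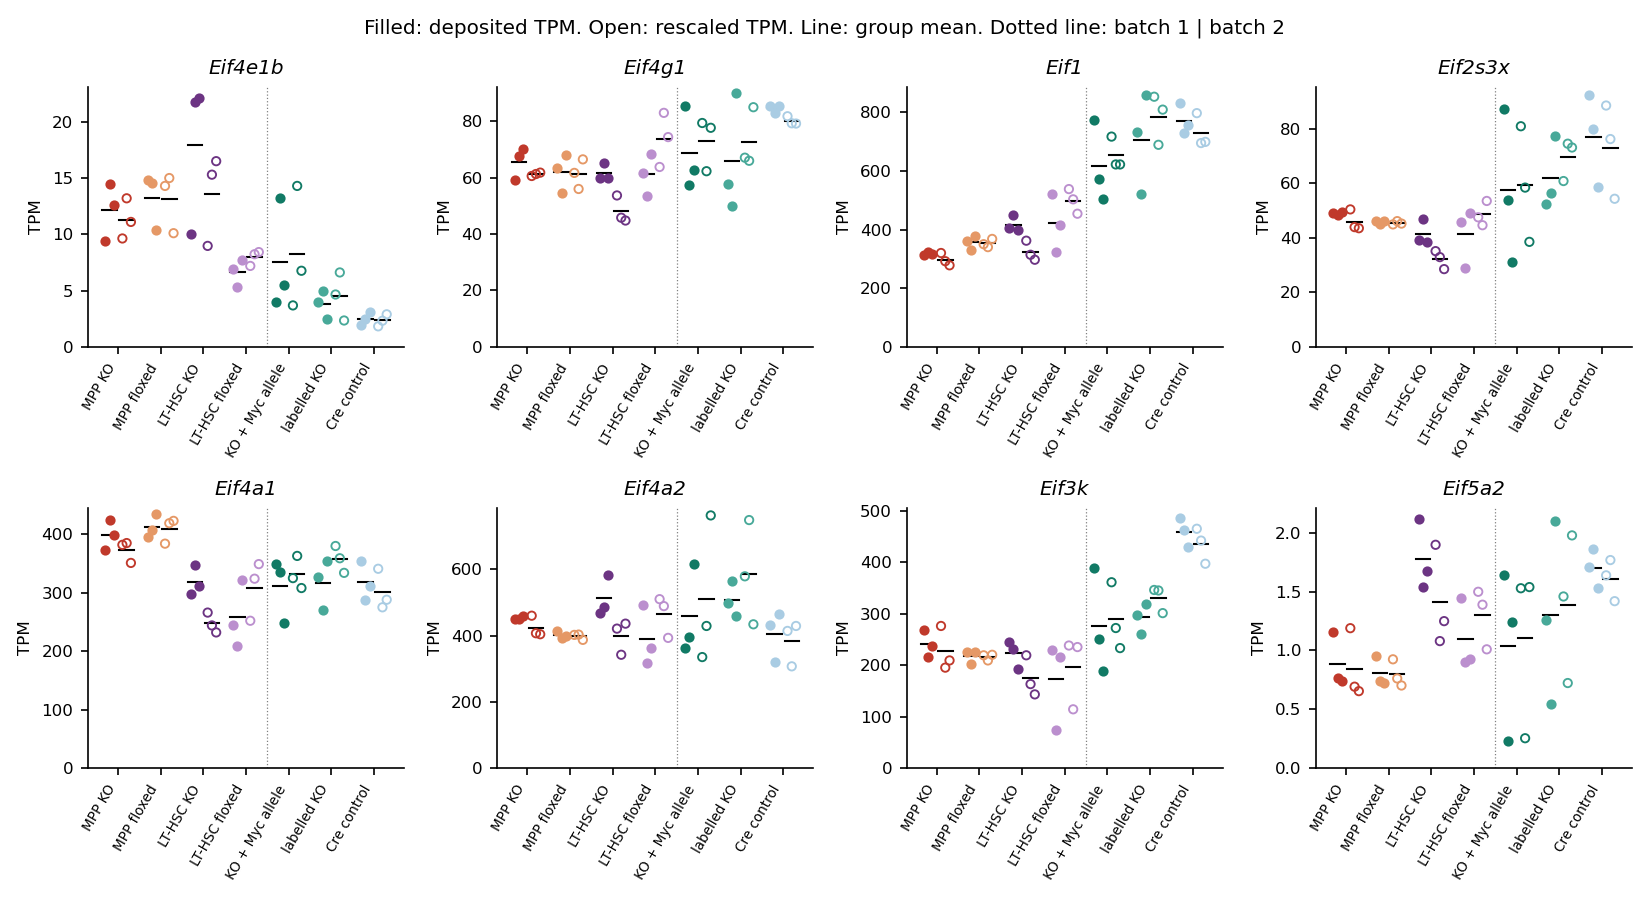
TPM of 8 members (vertical axis, from 0) in the 7 groups, with 1 point per library, filled for deposited and open for rescaled values, and lines at the group means. Eif4e1b is highest in LT-HSC knockouts of batch 1 and lowest in Cre controls, while Eif1 and Eif3k are higher in every group mean of batch 2 than in batch 1.

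MPP were compared with LT-HSC within each genotype. Summed B cell markers were 709 to 6020 TPM in knockout MPP, against 365 to 891 TPM in knockout LT-HSC, and 2160 to 11700 TPM in floxed MPP, against 9.83 to 216 TPM in floxed LT-HSC. Monocyte and dendritic markers summed to 136 to 163 TPM in knockout MPP, against 94.1 to 115 TPM in knockout LT-HSC, and to 216 to 303 TPM in floxed MPP, against 86.1 to 150 TPM in floxed LT-HSC. The part of these markers in the differences between cell types, of levels, ratios and junctions alike, was not tested. In floxed cells 2 of 49 members were higher and 0 lower on deposited TPM, against 15.5% and 5.62% of all genes, and on rescaled TPM 1 was higher and 1 lower, against 11.2% and 12.7%. Eif4e1b passed on both scales and higher, as 11.1% of all genes did, and no other member passed on both scales in any comparison. It had 14.8, 14.6 and 10.4 TPM in floxed MPP, against 6.95, 5.31 and 7.73 TPM in floxed LT-HSC, and the groups did not overlap (13.3 ± 2.51 and 6.66 ± 1.23 TPM, SD, n = 3 each). The log2 change was 0.89 (SE 0.27, adjusted p = 0.030) on deposited and 0.63 (adjusted p = 0.037) on rescaled TPM. The deposited call was lost without LT-HSC floxed control 1 or 2 and without MPP floxed control 1 or 2 (adjusted p up to 0.11). In knockouts Eif4e1b was not higher in MPP, with 9.39, 14.5 and 12.6 TPM in MPP and 10, 21.8 and 22.1 TPM in LT-HSC (log2 change -0.47, adjusted p = 0.26).

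Eif4a1, a helicase subunit of eIF4F (chr11:69666936-69672423), was the other member higher in floxed MPP. It had 396, 408 and 434 TPM in floxed MPP, against 244, 209 and 321 TPM in floxed LT-HSC (log2 change 0.70, SE 0.19, adjusted p = 0.020). On rescaled TPM the change was 0.39 (adjusted p = 0.076). Eif1 was lower in floxed MPP on rescaled TPM, with 350, 340 and 368 against 538, 503 and 454 (-0.52, SE 0.14, adjusted p = 0.017), and its deposited change was -0.21 (adjusted p = 0.45). Without MPP floxed control 1 or 2 the count was 0 members on either scale, and without LT-HSC floxed control 3 it was 10 on deposited and 4 on rescaled TPM.

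In knockouts the members stood higher in MPP than in LT-HSC relative to other genes. On rescaled TPM 12 of 49 were higher and 0 lower, against 11.6% and 11.3% of all genes, and the members' median log2 change was 0.39, against 0.03 for all genes. The 12 were all 3 eIF2 subunits (Eif2s1, Eif2s2 and Eif2s3x), the eIF3 subunits Eif3b, Eif3g, Eif3j2 and Eif3l, and Eif1ad, Eif1ax, Eif4a1, Eif4h and Eif2a. On deposited TPM none of these 12 passed (adjusted p from 0.19 to 0.66), and 0 members were higher and 1 lower, against 3.99% and 15.5% of all genes. The rescaled count was 19 without LT-HSC knockout 1 and 2 without LT-HSC knockout 3 or without MPP knockout 1. With the sample number shared by knockout MPP and LT-HSC libraries as a block it was 21, all higher.

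Eif2s1, whose product is the alpha subunit of eIF2 and the target of the stress kinases, had the smallest p among the 12. Its rescaled TPM was 36.8, 31.5 and 31.6 in knockout MPP, against 23.8, 19.7 and 18.5 in knockout LT-HSC (log2 change 0.68, SE 0.16, adjusted p = 0.0089). Eif2s3x had 50.4, 43.9 and 43.5, against 35.1, 32.9 and 28.5 (0.51, SE 0.13, adjusted p = 0.011). Eif4a1 had 382, 385 and 351, against 266, 244 and 232 (0.60, SE 0.15, adjusted p = 0.012). Eif3l had 90.3, 76.7 and 82.0, against 62.7, 53.5 and 45.8 (0.63, SE 0.16, adjusted p = 0.014). The groups did not overlap in any of these 4 genes. This comparison shares its LT-HSC knockout libraries with the one against floxed LT-HSC, in which the same libraries were low.

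The member that was lower in knockout MPP on deposited TPM was Eif5a2, the weakly expressed paralogue of the elongation and termination factor Eif5a. It had 1.16, 0.763 and 0.741 TPM in knockout MPP, against 2.12, 1.54 and 1.68 TPM in knockout LT-HSC, without overlap (log2 change -0.56, SE 0.19, adjusted p = 0.047). The rescaled change was -0.39 (adjusted p = 0.15), and the deposited call was lost without any 1 of the 6 libraries in turn, with adjusted p from 0.050 to 0.15. Eif2d and Eif1 followed, with deposited changes of -0.57 and -0.39 that did not pass.

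Ratios of related members within a library do not depend on the library scale, so 10 pairs were compared in batch 1. The pairs were chosen after the members' values were seen, so their ratios are a description with no test. Each ratio was set between cell types within genotype and between genotypes within cell type, which makes 20 comparisons of 2 strata each. The groups were apart in both strata in 3 comparisons, in 1 stratum in 7 and in none in 10. How often ratios of other gene pairs are apart was not counted.

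Eif4a1 and Eif4a2 are close paralogues that both fit into eIF4F. The ratio of Eif4a1 to Eif4a2 was 0.831, 0.945 and 0.868 in knockout MPP, against 0.632, 0.713 and 0.533 in knockout LT-HSC, and 0.954, 1.04 and 1.09 in floxed MPP, against 0.495, 0.662 and 0.888 in floxed LT-HSC. MPP and LT-HSC did not overlap in either genotype (mean log2 difference 0.57). Both genes hold snoRNA genes in their introns and the libraries were made from total RNA, so their levels may include reads of those.

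Among cap-binding proteins, Eif4e2 is a relative of eIF4E that represses translation. The ratio of Eif4e2 to Eif4e was 1.28, 1.34 and 1.44 in knockout MPP, against 1.49, 1.57 and 1.85 in knockout LT-HSC, and 1.46, 1.41 and 1.34 in floxed MPP, against 1.60, 1.88 and 1.61 in floxed LT-HSC. MPP lay below LT-HSC without overlap in both genotypes (mean log2 difference -0.27).

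For the main eIF4E-binding proteins, Eif4ebp1 against Eif4ebp2 gave ratios of 0.650, 0.686 and 0.677 in knockout MPP, against 0.994, 0.682 and 0.913 in knockout LT-HSC, which overlapped, and 0.608, 0.542 and 0.624 in floxed MPP, against 0.762, 0.941 and 0.985 in floxed LT-HSC, which did not. The mean log2 difference between MPP and LT-HSC was -0.47. Eif5a2 against Eif5a was lower in MPP by a mean log2 difference of -1.25, with group means of 0.00339 and 0.00873 in knockout MPP and LT-HSC and 0.00318 and 0.00758 in floxed MPP and LT-HSC. The groups did not overlap in knockouts and overlapped in floxed cells, and Eif5a2 averaged only 1.23 TPM over all libraries.

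Between genotypes, the ratio of the eIF1 paralogue Eif1b to Eif1 was the one apart in both cell types. It was 0.118, 0.109 and 0.107 in knockout LT-HSC, against 0.0832, 0.0455 and 0.0956 in floxed LT-HSC, and 0.126, 0.108 and 0.124 in knockout MPP, against 0.0958, 0.0895 and 0.1 in floxed MPP. The knockouts lay above the floxed controls of their cell type without overlap (mean log2 difference 0.48). Without the library that had the lowest ratio, LT-HSC floxed control 2, the difference was 0.32. In batch 2 the ratio was 0.103 ± 0.0179 with the Myc allele, 0.101 ± 0.00543 in labelled knockouts and 0.117 ± 0.0119 in Cre controls (SD, n = 3 each), so it was not higher than in Cre controls with the Myc allele or in the labelled knockouts, which showed a share of 0 to 0.0127 of the Rxra skipping junction. Eif4e1b to Eif4e differed between genotypes by a mean log2 difference of 0.41, with overlap in both cell types, and Eif4g3 to Eif4g1 by 0.36, with overlap in MPP.

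**Figure D4:**
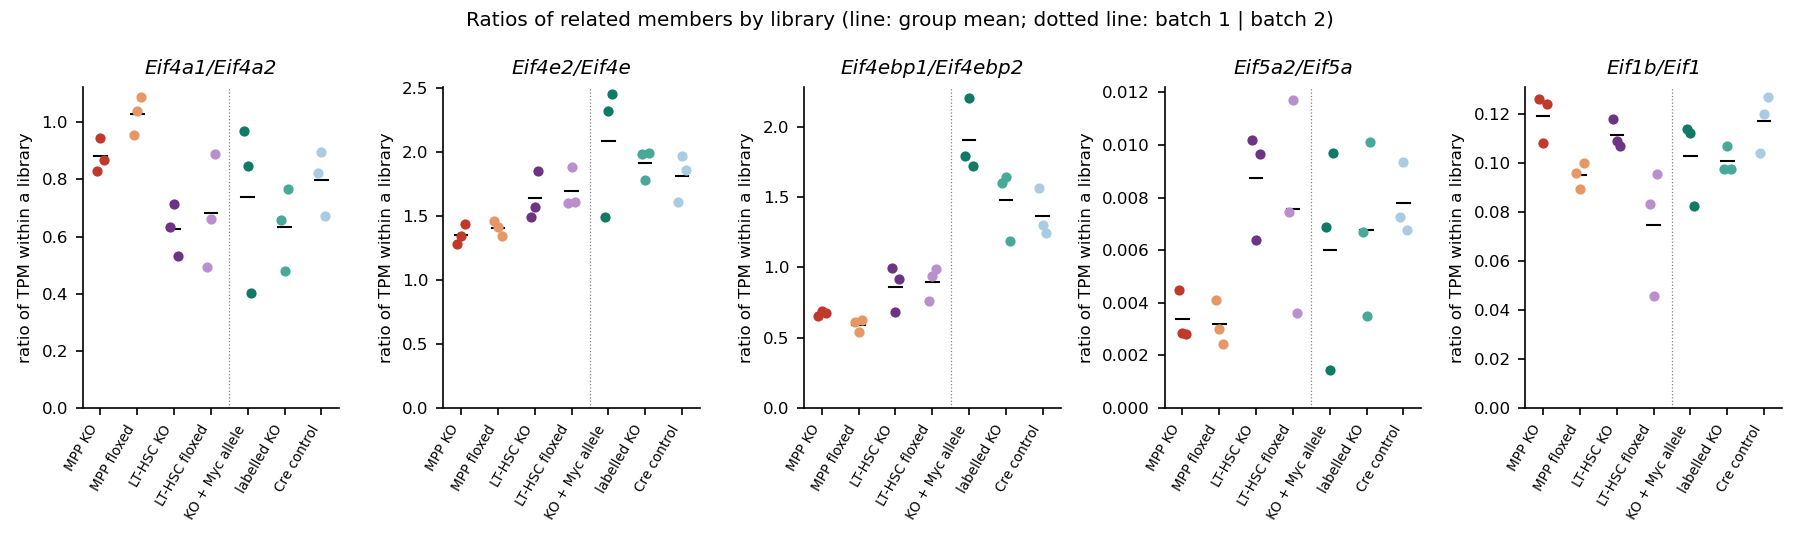
Ratio of the TPM of 2 related members within each library (vertical axis, from 0) in the 7 groups, with 1 point per library and lines at group means. In batch 1 MPP and LT-HSC do not overlap in either genotype for Eif4a1 to Eif4a2 and Eif4e2 to Eif4e, and Eif1b to Eif1 is higher in knockouts than in floxed controls of both cell types.

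In LT-HSC of batch 2, labelled knockouts against Cre controls, 0 of 48 members passed on either scale by limma, where 0.0744% of all genes passed on deposited and 0.0595% on rescaled TPM. At an unadjusted p under 0.05 there were 3 members on deposited TPM (6.25%), against 4.58% of all genes, and 1 on rescaled TPM (2.08%), against 3.85%. Most members were lower on deposited TPM, at 45 of 48 with a median log2 change of -0.36, against -0.25 for all genes. Only 25.41% of all genes were higher there. In 21 members all 3 labelled knockouts lay below all 3 Cre controls and in 0 above, against 16.1% and 3.95% of all genes. On rescaled TPM these counts were 9 lower and 5 higher, against 9.23% and 7.92% of all genes, and the members' median was -0.13, against -0.03.

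Many members shared the smallest adjusted p in that comparison, 0.70, and Eif1b and Eif3k are named from these after their values were seen. Eif1b had 71.6, 55.7 and 83.6 TPM in labelled knockouts, against 86.4, 87.1 and 96.2 TPM in Cre controls, without overlap (log2 change -0.37, SE 0.28). Eif3k had 298, 261 and 319 TPM in labelled knockouts, against 485, 463 and 429 TPM in Cre controls, also without overlap (-0.65, SE 0.25). Of the eIF3 subunits 13 of 14 had deposited values below 0 (median -0.46), and 11 of 14 on rescaled TPM (median -0.21), with none passing. The eIF4A helicases differed from this, with a deposited median of -0.01 and rescaled values above 0 in all 3 (median 0.25), none passing.

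Eif2s3y, the Y-linked copy of Eif2s3x that was left out of the members, was uneven in batch 2. Eif2s3x had 87.2, 53.8 and 31.1 TPM with the Myc allele, 52.4, 56.3 and 77.4 TPM in labelled knockouts and 92.2, 79.8 and 58.6 TPM in Cre controls. Eif2s3y had 0.281, 5.30 and 22.7 TPM, 0.456, 0.856 and 0.560 TPM, and 3.67, 3.61 and 22.0 TPM in the same libraries. In both groups where Eif2s3y varied widely, the library with most Eif2s3y had least Eif2s3x. In batch 1 Eif2s3y was 12.1 to 27.3 TPM in all 12 libraries. Kdm5d, another Y-linked gene, had 0.00417, 0.00516 and 5.6 TPM with the Myc allele, 0 TPM in every labelled knockout and 1.42, 1.88 and 7.56 TPM in Cre controls. In batch 1 Kdm5d was 2.3 to 6.67 TPM. Labelled knockouts thus differed from Cre controls and from batch 1 in a Y-linked transcript as well as in label. The part of this in the batch 2 values of Eif2s3x and of the other members was not tested.

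No member passed the test in the group with the Myc-family allele. That group differed from labelled knockouts also in the Rxra skipping share (0.647, 0 and 1, against 0, 0.0127 and 0). Kdm5d differed as well (0.00417, 0.00516 and 5.6 TPM, against 0 TPM in each). The part of the allele cannot be told apart from these. Against labelled knockouts 0 of 48 passed on either scale by limma, where 0% of all genes passed. At an unadjusted p under 0.05 there were also 0 members, against 4.07% of all genes on deposited and 5.46% on rescaled TPM. The members' median log2 change was -0.06 on deposited TPM (all genes 0.04) and -0.12 on rescaled TPM (all genes -0.01). Against Cre controls 0 of 48 passed by limma, where 0.104% of all genes passed on deposited and 0.0818% on rescaled TPM. At an unadjusted p under 0.05 there were 7 members on each scale (14.6%), against 9.42% and 9.47% of all genes. There the members' median was -0.35 (all genes -0.22) on deposited and -0.16 (all genes -0.05) on rescaled TPM. Its libraries were spread widely, as Eif3b shows with 56.2, 33.2 and 17.4 TPM with the Myc allele, 40.7, 23.7 and 49.5 TPM in labelled knockouts and 53.5, 54.7 and 54.4 TPM in Cre controls. Without the first of its libraries, 7 members fell against Cre controls on deposited TPM, and 5 fell and 1 rose on rescaled TPM. The share of all genes that passed in that fit was not counted. The transcript of Myc itself had 130, 86.9 and 57.6 TPM with the allele, 125, 102 and 158 TPM in labelled knockouts and 141, 143 and 140 TPM in Cre controls.

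The 3 genes of eIF4F whose promoters are printed above did not separate these groups. Eif4e had 28.1, 13.5 and 12.6 TPM with the Myc allele, 14.4, 18.0 and 22.7 TPM in labelled knockouts and 27.5, 20.9 and 25.8 TPM in Cre controls. Eif4g1 had 85.6, 57.4 and 62.8 TPM, 57.7, 49.9 and 90.0 TPM, and 85.3, 83.1 and 85.5 TPM in the same order. Eif4a1 had 350, 335 and 249 TPM, 327, 271 and 354 TPM, and 355, 288 and 311 TPM. The 3 groups overlapped in every pair for all 3 genes.

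Eif4e1b in batch 2 had 3.97, 13.2 and 5.46 TPM with the Myc allele, 4.00, 5.00 and 2.48 TPM in labelled knockouts and 1.90, 2.43 and 3.12 TPM in Cre controls. The Myc allele group lay above the Cre controls without overlap, and its log2 change of 1.16 (SE 0.41, adjusted p = 0.50) did not pass. The difference of batch 1 LT-HSC knockouts from floxed controls minus that of labelled knockouts from Cre controls in batch 2 was 0.79 for Eif4e1b (SE 0.44, adjusted p = 0.17) on deposited and 0.04 (adjusted p = 0.99) on rescaled TPM. The batches differ here in the control used and in the labelled knockouts, whose Rxra skipping shares were 0, 0.0127 and 0. They also differ in Y-linked transcripts, since the labelled knockouts had 0 TPM of Kdm5d. Over the family this difference passed by limma for 0 of 49 members on either scale (1.27% and 0.124% of all genes). At an unadjusted p under 0.05 there were 11 members on deposited TPM (22.4%), against 40.3% of all genes, and 6 on rescaled TPM (12.2%), against 9.82%. On deposited TPM it passed for 10 members, all higher, without labelled knockout 6 and for 1 without LT-HSC floxed control 1. Eif3k (1.17, SE 0.46, adjusted p = 0.086), Eif2d (0.86, adjusted p = 0.089) and Eif1a (1.02, adjusted p = 0.092) came nearest.

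Controls of the 2 batches stood apart in some members. Cre control LT-HSC of batch 2 had 771 ± 53.0 TPM of Eif1, against 420 ± 97.5 TPM in floxed LT-HSC of batch 1 (SD, n = 3 each), 54.2 ± 0.625 against 24.2 ± 3.84 TPM of Eif3b, 221 ± 10.6 against 106 ± 23.4 TPM of Eif4b, and 459 ± 28.3 against 173 ± 86.7 TPM of Eif3k. Eif4e1b was lower in Cre controls, at 2.49 ± 0.615 against 6.66 ± 1.23 TPM. The batch and the genotype of the control cannot be told apart here, and no test was made.

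Genes that act on the factors were read from a list of 46, chosen from general knowledge with earlier results known, of which 45 were tested. In LT-HSC knockouts of batch 1, 12 rose and 0 fell on deposited TPM (44.6% and 0.58% of all genes) and 0 rose and 7 fell on rescaled TPM (2.2% and 2.47%). None passed on both scales. The deposited rises were led by Eef2k, which inactivates the elongation factor eEF2 (log2 change 1.03, adjusted p = 0.00485), and the eIF2 kinase Eif2ak2 (0.96, adjusted p = 0.0076). Among the 7 were the stress-response factors Atf4 and Ddit3, the phosphatase cofactor Ppp1r15b that reverses eIF2 phosphorylation, the release factor Etf1, the elongation factor Eef2, the eIF4E kinase Mknk2 and the mTOR inhibitor Tsc2. Ddit3 had 24.0, 22.7 and 19.1 TPM in LT-HSC knockouts, against 35.9, 20.9 and 33.6 TPM in floxed LT-HSC, which overlapped on the deposited scale (rescaled log2 change -1.04, SE 0.18, adjusted p = 0.017). In knockout MPP it had 18.4, 16.9 and 13.9 TPM, against 31.3, 26.7 and 33.4 TPM in floxed MPP, without overlap (rescaled -0.92, SE 0.18, adjusted p = 0.046), and it was the 1 gene of the list to pass there (0 on deposited TPM). Deposited changes of Ddit3 were -0.41 (adjusted p = 0.11) in LT-HSC and -0.86 (adjusted p = 0.14) in MPP. None of the list passed in batch 2 by limma on either scale.

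Between cell types, 2 genes of the list were higher and 2 lower in floxed MPP on deposited TPM (15.5% and 5.62% of all genes), and 0 were higher and 6 lower on rescaled TPM (11.2% and 12.7%). In knockout MPP 0 were higher and 2 lower on deposited TPM (3.99% and 15.5%), and 4 were higher and 1 lower on rescaled TPM (11.6% and 11.3%). The higher ones were Paip1 and Larp1 in floxed MPP and Abce1, Dhps, Etf1 and Dhx29 in knockout MPP. Trib3, a target of the Atf4 and Ddit3 pathway, was lower in MPP on both scales in both genotypes. It had 0.812, 0.682 and 0.572 TPM in knockout MPP, against 5.29, 3.5 and 4.02 TPM in knockout LT-HSC (log2 change -1.63, SE 0.22, adjusted p = 6.6e-05), and 1.16, 0.945 and 0.904 TPM in floxed MPP, against 4.60, 2.45 and 2.39 TPM in floxed LT-HSC (-1.01, SE 0.22, adjusted p = 0.0040). Asns, the asparagine synthetase that Atf4 induces, was lower in floxed MPP on both scales, with 12.3, 9.87 and 7.54 TPM, against 21.2, 15.0 and 46.2 TPM in floxed LT-HSC (-1.25, SE 0.31, adjusted p = 0.010). In knockouts its difference was -0.73 (adjusted p = 0.12). Atf4 itself did not pass between cell types, with deposited differences of -0.05 in knockouts and 0.18 in floxed cells.

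Splicing of the members was read from the deposited shares of junction reads (percent spliced in, PSI, from 0 to 1), which held 170 events in 23 members, 124 of them of the intron retention type. Many introns are listed several times, in both orders of a junction pair and at both intron ends. Events of a gene are thus not independent, and Eif4g1 held 31, Eif4g3 17 and Eif5 15 of them. Counts and shares of events below are therefore not counts of introns or genes. An event was called where limma's adjusted p was under 0.05 and the mean PSI differed by at least 0.1. In 5 of the 7 comparisons limma called 0 member events. Of all events, 0.166% were called for LT-HSC knockouts against floxed controls and 0.486% for floxed MPP against LT-HSC. In batch 2, 0.0141% were called for the Myc allele against labelled knockouts, 0.0318% for it against Cre controls and 0.0389% for labelled knockouts against Cre controls. Events at an unadjusted p under 0.05 numbered 40 in members (24.1%) for LT-HSC knockouts, against 11.3% of all events, and 26 (15.7%) for floxed MPP against LT-HSC, against 11.6%. In batch 2 there were 11 (6.88%) for the Myc allele against labelled knockouts, where all events had 5.19%, 11 (6.88%) for it against Cre controls, where all events had 3.91%, and 7 (4.38%) for labelled knockouts, where all events had 3.19%. The exceptions were 1 event of Eif3c between knockout and floxed MPP and 1 of Eif4a2 between MPP and LT-HSC of the knockouts, among 166 member events tested in each, where 0.199% and 0.305% of all 39715 events were called.

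In Eif4a2 the event sets a junction from exon 6 to a site within the following intron (mm10 chr16:23111896-23112351) against the junction from exon 6 to exon 7. Its PSI was 0.792, 0.736 and 0.709 in knockout MPP, against 0.572, 0.545 and 0.540 in knockout LT-HSC, without overlap (difference 0.193, SE 0.031, adjusted p = 0.043). In floxed cells it was 0.786, 0.826 and 0.787 in MPP, against 0.651, 0.712 and 0.735 in LT-HSC, also without overlap and not called. Within LT-HSC of batch 1 it was lower in knockouts than in floxed controls by 0.147 (SE 0.031, adjusted p = 0.15), likewise not called. LT-HSC of batch 2 were lower again, at 0.273, 0.392 and 0.543 with the Myc allele, 0.411, 0.399 and 0.321 in labelled knockouts and 0.319, 0.336 and 0.415 in Cre controls. The call between MPP and LT-HSC of the knockouts was lost with the shared sample number as a block (adjusted p = 0.24) and without each of 4 libraries in turn (LT-HSC knockouts 2 and 3, MPP knockouts 1 and 2, adjusted p up to 0.12). The same gene carried 13 of the 170 events and is the partner of Eif4a1 in the ratio described above.

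In Eif3c, a core subunit of eIF3, the event is the junction from exon 13 to exon 14 (chr7:126556900-126557173) against reads that run from the intron into exon 14. Its PSI was 1, 1 and 1 in knockout MPP, against 0.835, 0.768 and 0.797 in floxed MPP (difference 0.200, SE 0.031, adjusted p = 0.0495). All 3 knockout libraries were at the maximum and all 3 floxed ones below it. In LT-HSC of batch 1 it was 0.804, 0.872 and 0.889 in knockouts, against 0.890, 0.907 and 0.833 in floxed controls, which overlapped. In LT-HSC of batch 2 it was 1, 0.778 and 0.65 with the Myc allele, and 1 in all 3 labelled knockouts and all 3 Cre controls. The maximum was thus not particular to knockout MPP. The call was lost without each of the 6 MPP libraries in turn (adjusted p 0.051 to 0.13) and with only these 2 groups in the fit (adjusted p = 0.080). The reverse entry, reads from the intron into exon 14 against the junction, had smaller differences and was not called. Its PSI was 0, 0 and 0 in knockout MPP, against 0.0963, 0.171 and 0.104 in floxed MPP.

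An event of Eif4enif1, which encodes a protein that carries eIF4E into the nucleus, did not pass and is named after its values were seen. Reads from exon 20 into the intron took 0.188, 0.231 and 0.190 in LT-HSC knockouts of batch 1, against 0, 0 and 0 in floxed LT-HSC (difference 0.203, SE 0.035, adjusted p = 0.076). In MPP they took 0.0901, 0.106 and 0.155 in knockouts, against 0.117, 0 and 0 in floxed controls. In batch 2 they took 0 in all 3 libraries with the Myc allele, 0, 0.152 and 0 in labelled knockouts, and 0 in all 3 Cre controls.

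**Figure D5:**
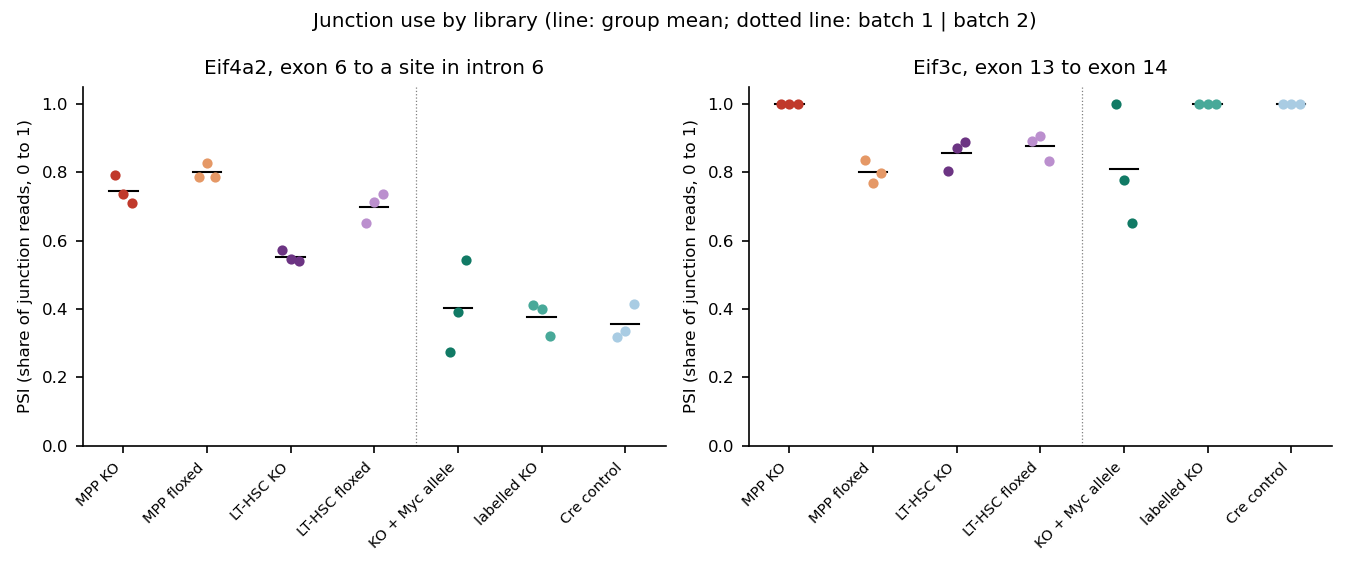
PSI (vertical axis, 0 to 1) of 1 event each of Eif4a2 and Eif3c in the 7 groups, with 1 point per library and lines at group means. For Eif4a2 the MPP libraries lie between 0.709 and 0.826 and the LT-HSC libraries of batch 1 between 0.540 and 0.735. For Eif3c the knockout MPP libraries are all at 1, as are the labelled knockouts and Cre controls of batch 2.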

How the data were processed

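Members, gene lists and ratios were chosen with earlier results of these data known. Gene values are deposited TPM per Ensembl identifier, and the splicing values are deposited fractions of 0 to 1. Per the submitters' processing notes kallisto and STAR 2.6 were used with mm10; which kallisto version, transcript set, strand setting or event caller was used is not stated. TPM keep no depth, so the reads behind a value are unknown. Per the labels' protocols each library came from 5 ng of total RNA. Of 28987 identifiers, 27458 (94.73%) matched a symbol. Positions and promoters are RefSeq's on GRCm38.p6.

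The test was limma 3.58.1 (R 4.3.3) with an intensity trend on log2(TPM + 1), for genes that reached 1 TPM in 3 or more of the fitted libraries, in fits of 12 (batch 1), 9 (batch 2) or 12 libraries (LT-HSC of both batches). The pseudocount of 1 understates changes of low genes. Benjamini-Hochberg adjustment ran over all genes. PSI events needed a value in every library. Scripts were tested on simulated data. Per comparison the naming rule takes members past both scales, or else the 3 with the smallest deposited adjusted p, which ties left undecided in MPP knockouts and batch 2. Other members were named after their values were seen. Each library pools animals, and p-values rest on the spread of these libraries, which may be partly technical. MPP and LT-HSC libraries of batch 1 share sample numbers in the labels, which do not say that these are animals. The deviations of same-numbered libraries correlated at 0.539, 0.155 and 0.256 in knockouts. The main fits nevertheless used group means and ignored this pairing. The sample number entered only as a block in alternative fits, which are given beside the main results.

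Reads of Eif3j1 and Eif3j2, and of Eif1a and Eif1ax, may be split between near-identical copies, and 21 members overlap another annotated gene, 6 of them a snoRNA. Alternatives were a pseudocount of 0.1, no filter, fits of only the groups compared, rescaling, replicate blocks and leaving out each library. Ratios and figures were made in Python 3.11.15 (matplotlib 3.10.9).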

Additional observations from a re-analysis of the deposited data

How the results depend on the processing

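Counts of members past the test in LT-HSC knockouts against floxed controls of batch 1 ran from 1 to 8 on deposited and from 0 to 16 on rescaled TPM when 1 library was left out. They were 1 in a fit of only these 2 groups and 5 on rescaled TPM with a replicate block. For MPP against LT-HSC in floxed cells the ranges were 0 to 10 and 0 to 4, the count was 1 with no filter and 1 in a fit of the 2 groups, and it was 5 on rescaled TPM with the block, 2 higher and 3 lower. In knockouts the ranges were 0 to 1 and 2 to 19, and the count was 1 on deposited and 12 on rescaled TPM, 0 on deposited TPM with a pseudocount of 0.1, 5 there in a fit of the 2 groups, and 21 on rescaled TPM with the block. The difference of the knockout effect gave 0 to 1 member between cell types without 1 library and 1 with the block (Eif4e1b, deposited adjusted p = 0.035), and 0 to 10 between batches. Against Cre controls the Myc allele group ran from 0 to 7 and from 0 to 6. Knockout against floxed MPP, labelled knockout against Cre control and Myc allele against labelled knockout stayed at 0 members without any 1 library on either scale. The share of all genes that passed was counted only in the main fits on the 2 scales. These counts therefore show how the calls moved and not whether members passed more often than other genes. The cause of these changes was not tested.

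Member PSI events in a fit of only the 2 groups were 2 for LT-HSC knockouts, 0 for MPP knockouts and 0 for MPP against LT-HSC of knockouts, and 0 for the last 2 with the block. Without 1 library they ran from 0 to 2 for LT-HSC knockouts, 0 to 0 for MPP knockouts, 0 to 11 and 0 to 12 for the Myc allele against labelled knockouts and Cre controls, and 0 to 1 for MPP against LT-HSC in either genotype.

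In LT-HSC knockouts 47 of 49 members were above 0 on deposited TPM, as were 94% of all genes. On rescaled TPM 46 of 49 members were below 0, where 46.67% of all genes were above 0. Among the genes taken by the naming rule, signs turned after rescaling for Eif2d in LT-HSC knockouts (-0.02), Eif2b2 in MPP knockouts (-0.059), Eif4g2 between the Myc allele group and labelled knockouts (-0.046), and the cell-type difference of the knockout effect for Eif2d (0.015) and Eif4g3 (0.03). Without 1 library Eif2b2 in MPP knockouts ran from -0.088 to 0.16, Eif4g2 there from -0.082 to 0.005, and Eif4g2 for the Myc allele against labelled knockouts from -0.037 to 0.079. Same-numbered floxed MPP and LT-HSC libraries correlated at 0.065, 0.101 and 0.106. The block used between cell types covered these floxed libraries as well as the knockouts, and the main fits had no block. The numbers shared by knockouts and controls did not pair those libraries, whose deviations correlated at 0.295, 0.037 and -0.071 in LT-HSC and -0.034, 0.101 and 0.061 in MPP of batch 1 and at -0.043, -0.016 and -0.153 in batch 2. With the block, 0 members passed in MPP knockouts and in each comparison of batch 2, as without it.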
